A study of Mus musculus with 12 samples.

Results

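Regulatory T cells (Treg) restrain other immune cells through a set of secreted and surface molecules, and 8 genes of this kind were followed here by the accessibility of their chromatin: Il10, Ebi3, Fgl2, Areg, Entpd1, Nt5e, Gzmb and Nrp1. Their member regions were all accessible regions of the ATAC-seq table that overlapped the body of one of these genes or the 20 kb on either side of it (mouse build mm9). The rule found 96 regions among 118680: 10 at Il10, 8 at Ebi3, 8 at Fgl2, 3 at Areg, 18 at Entpd1, 14 at Nt5e, 3 at Gzmb and 32 at Nrp1. Of the 96 regions, 68 had enough reads to be tested, at least 3.6 counts per 1000000 reads in regions (CPM) in at least 3 libraries, and the other 28 had a median mean level of 2.15 CPM.

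The 12 libraries were made from Treg sorted by the YFP that marks Foxp3 expression, with 3 libraries in each of 4 groups. WT Treg came from Foxp3-YFP-Cre mice, and Ikzf1-cko Treg came from Ikzf1-fl-Foxp3-YFP-Cre mice, in which Cre under the Foxp3 gene deletes the floxed Ikzf1 gene, so both genotypes carried the Foxp3-YFP-Cre allele. Ikzf1 encodes Ikaros, a zinc finger transcription factor of lymphocytes. The sorted cells were divided, so that ex vivo and stimulated libraries may come from the same cells, although no source says which libraries do. The ex vivo cells were left unstimulated and the stimulated cells were cultured for 4 hours on plate-bound anti-CD3 and anti-CD28. The labels give the spleen as the tissue, and the age of these mice is not given in the sources used here. Deletion is limited to cells that express Foxp3, and each library held about 100000 cells, so fewer accessible cells and less signal per cell cannot be told apart.

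The products of these genes act in different ways. Interleukin 10 and the Ebi3 chain of interleukin 35 are inhibitory cytokines, Fgl2 is a secreted suppressive protein and amphiregulin (Areg) is a growth factor by which Treg take part in tissue repair. CD39 (Entpd1) and CD73 (Nt5e) are ectoenzymes that work in sequence to turn extracellular ATP into adenosine, granzyme B (Gzmb) is a serine protease that kills target cells, and neuropilin 1 (Nrp1) is a surface receptor found on many Treg of thymic origin. In ATAC-seq, the Tn5 transposase cuts and tags DNA that is not covered by nucleosomes, so reads pile up over active promoters and enhancers, and accessibility is not the same as transcription.

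Depth differed between the genotypes: the libraries held 4808916 to 8596567 reads over all regions for WT and 9221901 to 15355521 for Ikzf1-cko. The 3 stimulated WT libraries were the least alike of any group, with Spearman correlations of 0.867 to 0.896 across regions against 0.942 to 0.985 within the other groups. Start sites of Cd3e, Cd4 and 4 of 5 Treg markers (Foxp3, Il2ra, Ctla4 and Tnfrsf18, but not Ikzf2) lay in accessible regions, whereas 0 of 4 B cell and 0 of 4 myeloid marker genes had a region over the start, and of 3 erythroid markers only Gata1 had one. Reads over the Ikzf1 gene body do not test the deletion, and the 31 regions there summed to 502.5 to 575.6 FPKM in ex vivo WT and to 474.7 to 531.6 FPKM in ex vivo Ikzf1-cko libraries. FPKM is the number of reads in a region per kilobase of the region and per 1000000 reads over all regions of the library.

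Sequences are shown for the upstream Il10 and Nt5e regions with the largest ex vivo genotype differences, for the Il10 region most altered by stimulation, for the Nrp1 region called for a genotype-dependent response, and for the promoters of Ebi3 and Gzmb, whose start-site regions differed between genotypes in opposite directions. The first 4 are the central 300 bases of a region on the plus strand, and the last 2 are the 300 bases before the annotated start on the strand of the gene, all from the mm9 reference. Capitals mark the letters GGGAA or their reverse complement TTCCC, the core that Ikaros recognises, and TGANTCA with C or G in the middle, the letters of an AP-1 site.
Il10, 16.1 kb upstream of the start (chr1:132899814-132900113): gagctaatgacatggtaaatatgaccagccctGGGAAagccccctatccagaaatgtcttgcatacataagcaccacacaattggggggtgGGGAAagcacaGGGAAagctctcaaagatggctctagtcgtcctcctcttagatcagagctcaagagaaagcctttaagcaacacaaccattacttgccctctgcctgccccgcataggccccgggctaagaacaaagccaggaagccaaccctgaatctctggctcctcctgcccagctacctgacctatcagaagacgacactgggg
Il10, 2.7 kb downstream of the start, in the region over exon 4 (chr1:132919343-132919642): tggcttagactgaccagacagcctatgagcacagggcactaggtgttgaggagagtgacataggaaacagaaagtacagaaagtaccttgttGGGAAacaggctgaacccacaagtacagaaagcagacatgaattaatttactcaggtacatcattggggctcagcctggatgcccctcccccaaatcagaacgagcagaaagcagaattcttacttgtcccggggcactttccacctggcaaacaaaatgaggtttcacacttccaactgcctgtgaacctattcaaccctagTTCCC
Nt5e, 17.7 kb upstream of the start (chr9:88204200-88204499): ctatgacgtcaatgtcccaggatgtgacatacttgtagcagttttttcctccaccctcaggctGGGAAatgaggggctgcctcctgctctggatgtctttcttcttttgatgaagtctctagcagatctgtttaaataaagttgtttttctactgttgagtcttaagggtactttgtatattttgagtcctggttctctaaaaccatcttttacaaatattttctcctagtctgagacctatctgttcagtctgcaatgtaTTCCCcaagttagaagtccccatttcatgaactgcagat
Nrp1, 7.4 kb upstream of the start (chr8:130875110-130875409): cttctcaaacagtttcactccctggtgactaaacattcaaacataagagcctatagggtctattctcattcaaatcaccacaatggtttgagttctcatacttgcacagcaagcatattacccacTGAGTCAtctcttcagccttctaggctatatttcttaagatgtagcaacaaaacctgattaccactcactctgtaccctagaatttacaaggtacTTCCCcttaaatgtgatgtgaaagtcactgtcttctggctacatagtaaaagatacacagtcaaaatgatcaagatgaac
Ebi3 promoter (chr17:56091746-56092045): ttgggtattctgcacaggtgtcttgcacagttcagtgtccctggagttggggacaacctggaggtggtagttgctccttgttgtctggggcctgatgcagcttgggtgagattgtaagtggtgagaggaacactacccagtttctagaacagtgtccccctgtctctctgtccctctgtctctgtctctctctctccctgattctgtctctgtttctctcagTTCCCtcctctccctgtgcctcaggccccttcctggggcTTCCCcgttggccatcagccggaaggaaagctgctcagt
Gzmb promoter (chr14:56881098-56881397, minus strand): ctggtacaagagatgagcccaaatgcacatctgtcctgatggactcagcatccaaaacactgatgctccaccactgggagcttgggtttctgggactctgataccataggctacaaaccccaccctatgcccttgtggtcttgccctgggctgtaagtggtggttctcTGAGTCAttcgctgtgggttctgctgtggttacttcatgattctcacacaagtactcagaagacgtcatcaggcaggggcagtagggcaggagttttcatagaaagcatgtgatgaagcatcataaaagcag

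The letters of the Ikaros core were common everywhere. They occurred in the central 300 bases of 61 of the 96 member regions (63.5%) and in 59.0% of such windows over 118480 regions. Among the sequences shown, the upstream Il10 window held 3 matches, the Il10 exon 4 window 2, the upstream Nt5e window 2, the Nrp1 window 1 and the Ebi3 promoter 2, whereas the Gzmb promoter held 0 and had 1 AP-1 match. In the 300 bases before 70008 annotated starts of protein-coding transcripts, 62.5% held the Ikaros core letters and 4.43% the AP-1 letters. AP-1 letters occurred in 17.7% of member windows against 11% of all windows, and the letters TGGAAA of NFAT sites in 34.4% against 21.8%. The forkhead letters GTAAACA occurred in 5.21% against 3.69%, the STAT letters TTCNNNGAA in 5.21% against 8.18% and the RUNX letters TGTGGTT in 10.4% against 9.73%. All motifs were searched on both strands, TGGAAA and GGGAA share the letters GGAA, and a match describes letters only.

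The first question was how loss of Ikaros altered accessibility at these genes in ex vivo Treg. Regions at Il10 and the start site of Ebi3 were more accessible in Ikzf1-cko than in WT Treg, regions at Gzmb and within Nrp1 were less accessible, and Nt5e and Entpd1 held both kinds. Of the 68 tested member regions, 14 were higher and 13 were lower in Ikzf1-cko Treg by the edgeR quasi-likelihood test (adjusted p under 0.05), beside 8.78% higher and 12.7% lower of all 69957 tested regions. A difference that also exceeded 1 on the log2 scale was called, which applied to 2 member regions, both higher, beside 4.63% of all tested regions. The median log2 difference of the members was -0.03 and that of all tested regions -0.13. The balance depended on scaling. TMM factors, which moved the median of all tested regions to -0.02, gave 16 higher and 9 lower members with a median of 0.09. DESeq2 gave 13 higher and 4 lower. Calls over all tested regions went from 3238 to 2490 with TMM and to 2405 with DESeq2. The shares above are those of the main fit.

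In stimulated Treg, the member regions differed mostly in 1 direction. Of the 68 tested, 31 were higher and 3 were lower in Ikzf1-cko Treg, beside 20.4% higher and 30.7% lower of all tested regions, and 2 were called, both higher, beside 21.3% of all. The median log2 difference was 0.34 for the members and -0.11 for all tested regions. Level moved with this contrast over the whole table: when tested regions were split by mean level into 5 bins of equal size, 61.9% of the bin with the most reads were higher in stimulated Ikzf1-cko Treg and 74.6% of the bin with the fewest were lower. Among the members, 14 lay in the bin with the most reads, where 11 were higher, and 29 lay in the bin below it, where 14 were higher beside 25.3% of all. With offsets that remove the trend of each library against level, 27 members were higher and 4 lower. Their median was 0.34, beside 0.01 for all tested regions. Calls over all tested regions fell under these offsets from 14932 to 4725, so the shares above are those of the main fit only. Without stimulated WT replicate 3, 22 were higher and 3 lower, and leaving out stimulated WT replicate 1 or 3 lowered the calls over all tested regions from 14932 to 5415 and 5989, with 59125 and 59440 regions then passing the filter.

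**Figure D1:**
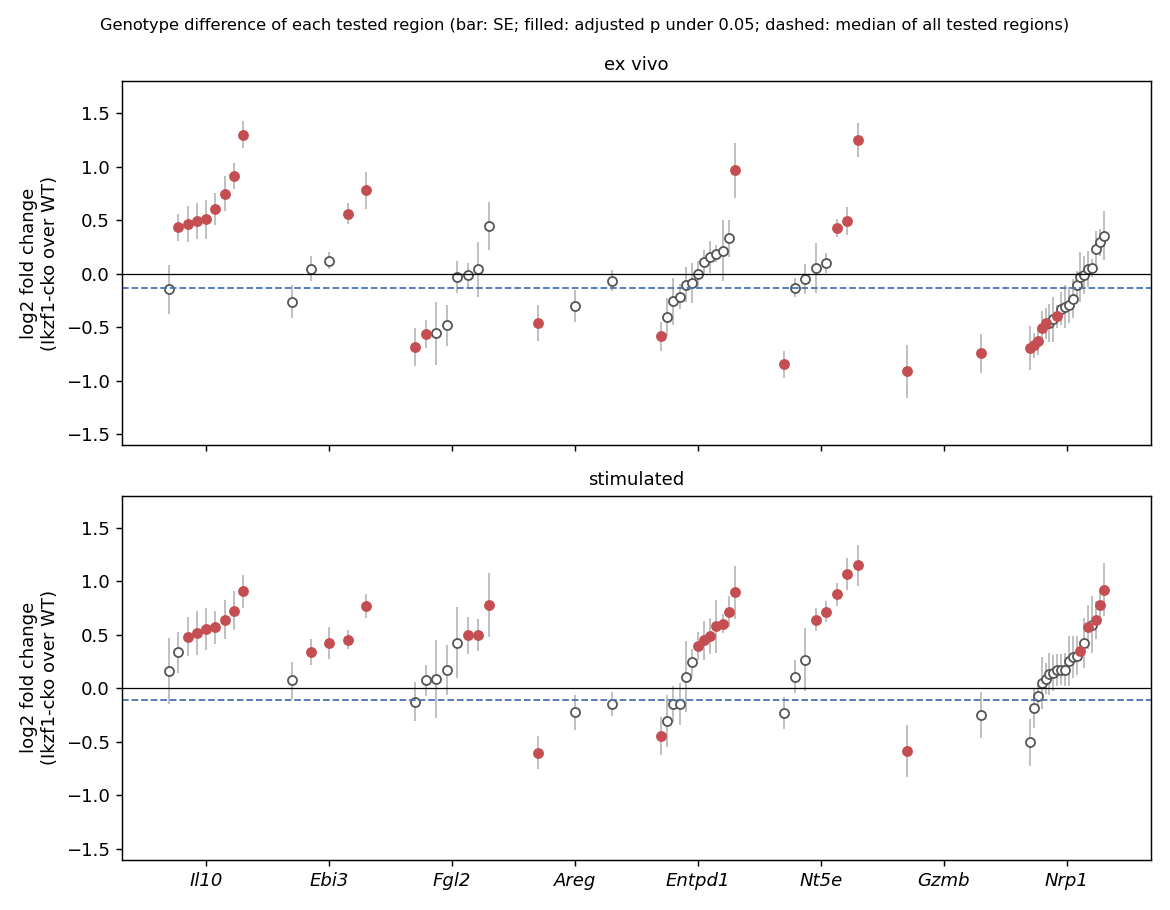
Log2 fold change in accessibility between Ikzf1-cko and WT Treg (vertical axis) for each of the 68 tested member regions, grouped by gene (horizontal axis), in ex vivo cells (top) and stimulated cells (bottom). Points are regions with their standard error, filled where the adjusted p was under 0.05, and the dashed line is the median of all tested regions, -0.13 ex vivo and -0.11 stimulated. Filled Il10 points lie above 0 in both panels, while Nrp1 has 6 filled points below 0 ex vivo and 5 above 0 after stimulation, of 20 tested. Of all tested regions, 12.7% were lower ex vivo and 20.4% higher after stimulation.

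Il10 encodes the inhibitory cytokine interleukin 10, and most of its regions differed in the same direction. Ex vivo, 8 of its 9 tested regions were higher in Ikzf1-cko Treg and 0 were lower. Stimulated, 7 of 9 were higher and 0 lower, with 7 regions higher in both states. Of all tested regions, 8.78% were higher ex vivo and 20.4% stimulated. The region 16.1 kb upstream of the start (chr1:132899571-132900355) was the most accessible at this gene and the most changed. Its accessibility in ex vivo WT libraries was 12.7, 16.9 and 18.5 FPKM, and in ex vivo Ikzf1-cko libraries it was 40.1, 44.8 and 35.9 FPKM. After stimulation it was 9.06, 12.1 and 13.0 FPKM in WT and 19.9, 21.9 and 21.6 FPKM in Ikzf1-cko libraries. The genotypes did not overlap in either state. The log2 difference between the genotypes was 1.30 ± 0.12 (SE) ex vivo (edgeR adjusted p = 9.76e-09), a 2.46-fold higher level, and 0.91 ± 0.16 stimulated (adjusted p = 2.65e-05).

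The region over exon 4 of Il10 (chr1:132919094-132919890) was the member most altered by stimulation. It stood at 14.0, 15.6 and 13.6 FPKM in ex vivo WT and at 25.9, 29.7 and 25.7 FPKM in ex vivo Ikzf1-cko libraries. In stimulated libraries it stood at 6.22, 7.11 and 4.96 FPKM in WT and at 9.25, 9.07 and 10.4 FPKM in Ikzf1-cko. Every stimulated library was below every ex vivo library, and the Ikzf1-cko libraries were above the WT libraries in each state. The log2 change on stimulation was -1.23 ± 0.18 in WT (adjusted p = 3.38e-06) and -1.50 ± 0.12 in Ikzf1-cko Treg (adjusted p = 3.2e-10), and the difference between these responses did not pass the test (-0.27 ± 0.23, adjusted p = 0.488, with a 95% interval of -0.72 to 0.18).

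The other Il10 regions moved less. No region overlapped the Il10 start, and the nearest, 0.7 kb inside the gene, had too few reads to be tested. The region 13.4 kb upstream was the one tested region that passed the test in neither state (log2 difference between genotypes -0.15 ± 0.23 ex vivo and 0.16 ± 0.31 stimulated), and it fell by 1.06 on stimulation in WT Treg (adjusted p = 0.0039). On stimulation, 5 of the 9 regions fell in WT and 6 fell in Ikzf1-cko Treg, 5 of them in both, and 0 rose in either genotype. Of all tested regions, 20.7% fell in WT and 11.5% in Ikzf1-cko Treg. Summed over its 10 regions, the Il10 window held 84.5 ± 8.0 CPM in ex vivo WT, 137.4 ± 16.7 in ex vivo Ikzf1-cko, 59.0 ± 5.3 in stimulated WT and 89.6 ± 0.38 in stimulated Ikzf1-cko Treg (SD, n = 3 each). Within each state the genotypes did not overlap, and within each genotype the states did not, whereas stimulated Ikzf1-cko libraries overlapped with ex vivo WT libraries. Treg marker start sites also carried more signal in Ikzf1-cko libraries when summed over 4 of the 5 markers. Ex vivo the sums were 171.6 to 188.8 FPKM against 147.3 to 157.8 in WT, and stimulated 157.2 to 170.8 against 108.7 to 149.8. By the highest start-site region of each marker, the ex vivo genotypes did not overlap at Ctla4 and Tnfrsf18 but did at Foxp3 and Il2ra. Foxp3 stood at 10.77 to 11.93 FPKM in ex vivo Ikzf1-cko and at 10.9 to 13.24 FPKM in ex vivo WT libraries. After stimulation only Ctla4 did not overlap. The part of these marker differences in the Il10 values was not tested.

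**Figure D2:**
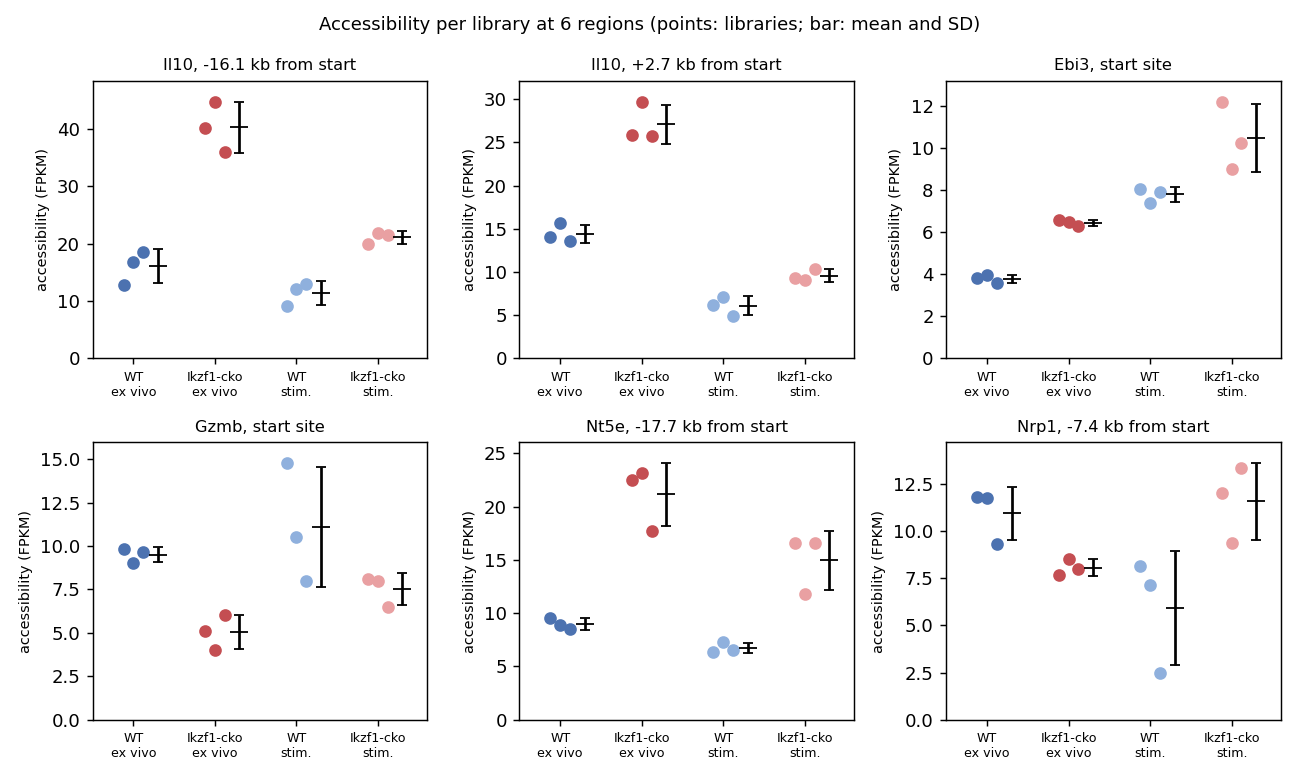
Accessibility in FPKM (vertical axis, from 0) of 6 member regions in each of the 12 libraries, by group (horizontal axis, where stim. is stimulated). Points are libraries and the bar beside them is the mean with its SD, n = 3. The 3 Ikzf1-cko libraries lie above the 3 WT libraries in each state at both Il10 regions, at the Ebi3 start and at the upstream Nt5e region, and below them ex vivo at the Gzmb start.

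The start site of Ebi3, which encodes a chain of interleukin 35, became more accessible on stimulation. Accessibility at the start-site region (chr17:56091535-56092744) was 3.82, 3.94 and 3.56 FPKM in ex vivo WT and 6.57, 6.49 and 6.29 FPKM in ex vivo Ikzf1-cko libraries. It was 8.06, 7.40 and 7.91 FPKM in stimulated WT and 12.2, 8.999 and 10.2 FPKM in stimulated Ikzf1-cko libraries. None of the 4 groups overlapped another, and their order from low to high began with ex vivo WT, then ex vivo Ikzf1-cko, and ended with WT and then Ikzf1-cko after stimulation. The level rose on stimulation by 1.05 ± 0.19 on the log2 scale in WT (adjusted p = 5.17e-05) and by 0.69 ± 0.13 in Ikzf1-cko Treg (adjusted p = 2.46e-04). It was higher in Ikzf1-cko Treg by 0.78 ± 0.17 ex vivo (adjusted p = 0.00138) and by 0.42 ± 0.15 stimulated (adjusted p = 0.0195), and the latter did not pass the test under 4 of 21 alternative settings.

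The window around Ebi3 also holds the starts of 2 other genes. The region 6.9 kb upstream covers the start of Zfp119b and was higher in Ikzf1-cko Treg by 0.56 ± 0.10 ex vivo (adjusted p = 1.6e-04) and by 0.77 ± 0.11 stimulated (adjusted p = 2.7e-06). The region 6.3 kb downstream covers the start of Ccdc94 and, at 36.5 to 59.5 FPKM over the 12 libraries, was the most accessible of the window. These regions cannot be assigned to Ebi3 from accessibility alone. Ex vivo 2 of the 5 tested regions and stimulated 4 of the 5 were higher in Ikzf1-cko Treg, beside 8.78% and 20.4% of all. In both states 0 were lower. With offsets against level, the stimulated count was 1.

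The 8 regions of Fgl2, a secreted suppressive protein, all lie within another annotated gene, Ccdc146. At the Fgl2 start site the levels were 13.2, 12.8 and 15.2 FPKM in ex vivo WT and 14.4, 13.8 and 12.2 FPKM in ex vivo Ikzf1-cko libraries, which overlapped. In stimulated libraries they were 11.1, 12.5 and 7.43 FPKM in WT and 13.9, 14.8 and 15.4 FPKM in Ikzf1-cko. Here every Ikzf1-cko library was the higher (log2 difference 0.50 ± 0.17, adjusted p = 0.0166). The stimulated difference did not pass under 3 of 21 alternative settings, with adjusted p up to 0.26. These were thinned counts and leaving out replicate 3 of stimulated WT or of stimulated Ikzf1-cko. Ex vivo, 2 of 8 tested regions were lower in Ikzf1-cko Treg, beside 12.7% of all tested regions. They lay 5.8 and 11.9 kb downstream of the start, with log2 differences of -0.68 ± 0.18 (adjusted p = 0.00635) and -0.57 ± 0.13 (adjusted p = 0.0022). Stimulation lowered 6 of the 8 regions in WT Treg, beside 20.7% of all tested regions. The region 1.6 kb upstream of the start fell in WT from 16.1, 18.0 and 18.9 to 10.0, 9.40 and 9.27 FPKM (log2 change -0.89 ± 0.15, adjusted p = 2.9e-05). In Ikzf1-cko Treg the same region went from 18.0, 18.6 and 16.0 to 15.4, 12.6 and 12.9 FPKM (-0.38 ± 0.12, adjusted p = 0.019), and the difference between the 2 responses did not pass the test (0.52 ± 0.19, adjusted p = 0.095).

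Areg, the gene of the growth factor amphiregulin, had 3 regions, and all were tested. The start-site region stood at 29.1, 26.8 and 27.7 FPKM in ex vivo WT and at 24.2, 26.6 and 29.1 FPKM in ex vivo Ikzf1-cko libraries, with no difference past the test (-0.06 ± 0.10, adjusted p = 0.657, 95% interval -0.26 to 0.13). It was lower after stimulation in both genotypes, at 20.4, 22.1 and 24.6 FPKM in WT and at 20.4, 22.1 and 18.0 FPKM in Ikzf1-cko libraries. The log2 changes were -0.32 ± 0.11 (adjusted p = 0.0219) and -0.40 ± 0.10 (adjusted p = 0.00326). The WT change did not pass under 6 of 22 alternative settings, over which it ranged from -0.39 to -0.08, and the Ikzf1-cko change under 1. The region 15.1 kb upstream moved the other way, rising by 0.46 ± 0.17 in WT (adjusted p = 0.031) and by 0.70 ± 0.15 in Ikzf1-cko Treg (adjusted p = 0.0011). The WT rise did not pass under 7 of 22 alternative settings, the Ikzf1-cko rise under 1. Ex vivo this region was lower in Ikzf1-cko Treg (-0.46 ± 0.17, adjusted p = 0.045), a difference that failed under 12 of 21. In stimulated cells the region 12.1 kb upstream was lower in Ikzf1-cko Treg, at 7.65, 8.65 and 7.65 FPKM against 13.6, 10.4 and 12.2 FPKM in WT (-0.60 ± 0.15, adjusted p = 0.00152).

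Nt5e, which encodes CD73, carried a region called in both states. The region 17.7 kb upstream of its start (chr9:88203986-88204712) measured 9.53, 8.93 and 8.48 FPKM in ex vivo WT and 22.5, 23.2 and 17.8 FPKM in ex vivo Ikzf1-cko libraries. Stimulated WT libraries measured 6.37, 7.29 and 6.58 FPKM and stimulated Ikzf1-cko libraries 16.6, 11.8 and 16.6 FPKM. All 6 Ikzf1-cko libraries were above all 6 WT libraries. The log2 difference was 1.25 ± 0.16 ex vivo (adjusted p = 9.57e-07) and 1.15 ± 0.19 stimulated (adjusted p = 1.64e-05), and the genotype difference did not itself differ between the states (-0.10 ± 0.26, adjusted p = 0.846).

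Near the Nt5e start, the region 1.5 kb into the gene was the one whose response to stimulation differed between genotypes by the test. The start-site region measured 31.3, 33.6 and 38.1 FPKM in ex vivo WT against 48.1, 48.6 and 42.8 FPKM in ex vivo Ikzf1-cko libraries, and 23.4, 24.8 and 24.0 against 37.6, 39.7 and 41.0 FPKM stimulated. The log2 differences were 0.43 ± 0.08 (adjusted p = 4.53e-04) and 0.72 ± 0.10 (adjusted p = 9.78e-07), and the difference between them did not pass the test (0.29 ± 0.13, adjusted p = 0.161). At the intronic region 1.5 kb from the start, levels ex vivo overlapped between genotypes, at 51.2, 46.2 and 48.5 FPKM in WT and 55.5, 53.1 and 46.4 FPKM in Ikzf1-cko libraries. After stimulation this intronic region stood at 27.9, 30.3 and 28.1 FPKM in WT and at 53.5, 49.4 and 55.8 FPKM in Ikzf1-cko libraries, so that WT fell (-0.75 ± 0.11, adjusted p = 4.9e-06) and Ikzf1-cko Treg did not pass the test (0.03 ± 0.09, adjusted p = 0.82). The difference between these responses passed it, at 0.78 ± 0.14 (adjusted p = 9.9e-04). The intronic region at 4.7 kb, the other region called in stimulated cells, was higher by 1.07 ± 0.15 in Ikzf1-cko Treg (adjusted p = 1.84e-06).

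A region deeper in Nt5e went the other way. The intronic region at 29.0 kb measured 18.4, 17.3 and 17.6 FPKM in ex vivo WT and 10.7, 10.1 and 8.65 FPKM in ex vivo Ikzf1-cko libraries, a log2 difference of -0.85 ± 0.13 (adjusted p = 1.2e-05). After stimulation WT measured 10.4, 12.2 and 11.4 FPKM, close to the 8.66, 11.3 and 8.99 FPKM of Ikzf1-cko libraries, and the genotypes overlapped. In all, 3 of 8 tested Nt5e regions were higher and 1 was lower in Ikzf1-cko Treg ex vivo, beside 8.78% and 12.7% of all. Stimulated, 5 were higher and 0 lower, beside 20.4% and 30.7% of all, and 3 were higher in both states. The most accessible region of the window, 52.3 kb from the start, lies within the neighbouring gene Snx14 and is among the 5 higher stimulated.

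**Figure D3:**
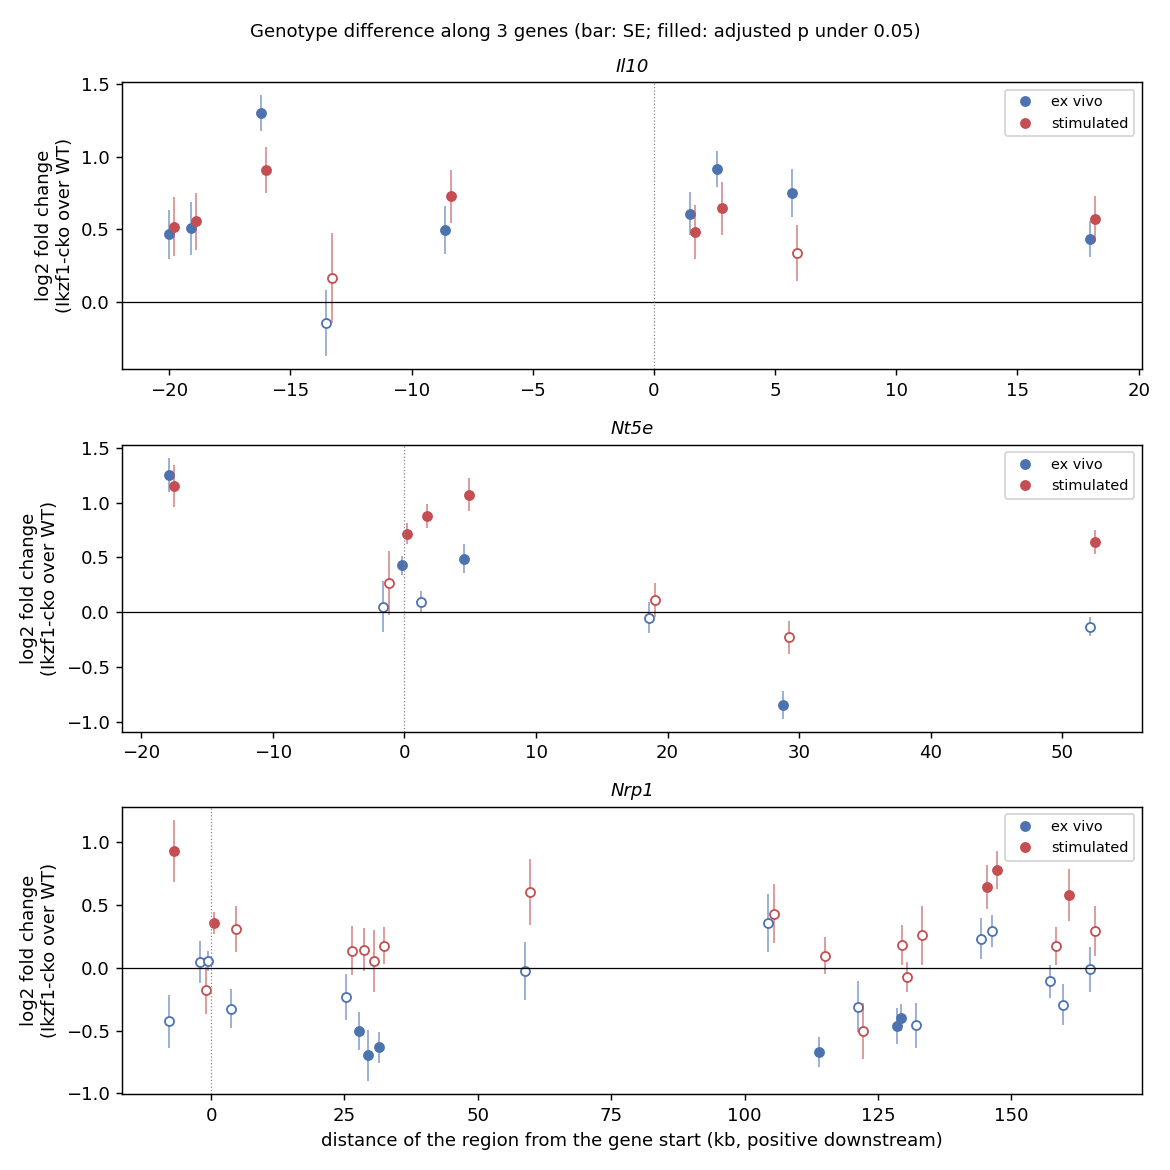
Log2 fold change between Ikzf1-cko and WT Treg (vertical axis) against the distance of each tested region from the gene start (horizontal axis, kb) for Il10, Nt5e and Nrp1, in ex vivo (blue) and stimulated (red) cells. Points are regions with their standard error, filled where the adjusted p was under 0.05. Values above 0 run along the Il10 window, except ex vivo at 13.4 kb upstream. At Nt5e, 5 of 8 tested regions lie above 0 ex vivo and 7 of 8 stimulated, the latter including the region at 52.3 kb. At Nrp1 the red points lie above the blue points at most distances.

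At Entpd1, which encodes CD39, most regions that differed between genotypes did so after stimulation. Ex vivo 1 of 13 tested regions was higher and 1 was lower in Ikzf1-cko Treg, and stimulated 7 were higher and 1 lower. Of all tested regions, 8.78% were higher and 12.7% lower ex vivo, and 20.4% higher and 30.7% lower stimulated. The region over the first start, which also covers the start of Tctn3 and was the most accessible of the window, measured 59.8, 51.4 and 56.8 FPKM in ex vivo WT and 66.0, 63.1 and 61.3 FPKM in ex vivo Ikzf1-cko libraries. Stimulated WT libraries measured 41.0, 41.3 and 48.2 FPKM and stimulated Ikzf1-cko libraries 61.5, 66.9 and 69.2 FPKM. The stimulated difference passed the test (0.61 ± 0.09, adjusted p = 2.99e-06), the ex vivo one did not (0.19 ± 0.08, adjusted p = 0.0917), and the difference between them did (0.42 ± 0.12, adjusted p = 0.0289). That last difference did not pass under 11 of 21 alternative settings, TMM, DESeq2, loess and limma among them, with adjusted p up to 0.325.

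The second Entpd1 start region, 47.1 kb into the gene and not shared with another gene, was also lowest in stimulated WT. It measured 13.5, 11.6 and 12.6 FPKM in ex vivo WT, 12.7, 13.0 and 11.7 FPKM in ex vivo Ikzf1-cko, 9.12, 8.80 and 7.93 FPKM in stimulated WT and 12.9, 14.9 and 14.8 FPKM in stimulated Ikzf1-cko libraries. Stimulated WT stood below the other groups, which overlapped with each other. The log2 difference between genotypes was 0.00 ± 0.12 ex vivo (adjusted p = 1, 95% interval -0.24 to 0.24) and 0.72 ± 0.14 stimulated (adjusted p = 1.58e-04), and the difference between them was 0.72 ± 0.19 (adjusted p = 0.0192). The Entpd1 region lower ex vivo, in an intron at 27.4 kb, measured 19.6, 19.2 and 22.2 FPKM in WT and 15.6, 13.4 and 11.7 FPKM in Ikzf1-cko libraries (-0.58 ± 0.14, adjusted p = 0.00251). The intronic region at 74.9 kb rose on stimulation in Ikzf1-cko Treg, from 9.14, 7.94 and 5.77 to 13.3, 11.8 and 13.5 FPKM (0.74 ± 0.16, adjusted p = 9.19e-04). The intronic region at 53.4 kb was the member of this gene higher in both states, by 0.96 ± 0.26 ex vivo (adjusted p = 0.0077) and by 0.90 ± 0.25 stimulated (adjusted p = 0.00305).

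At Gzmb, the gene of the protease granzyme B, both tested regions were lower in ex vivo Ikzf1-cko Treg, beside 12.7% of all. The start-site region measured 9.82, 9.02 and 9.65 FPKM in ex vivo WT and 5.13, 4.02 and 6.002 FPKM in ex vivo Ikzf1-cko libraries, without overlap. Stimulated libraries measured 14.8, 10.5 and 7.96 FPKM in WT and 8.07, 8.01 and 6.495 FPKM in Ikzf1-cko, with overlap. The log2 difference was -0.91 ± 0.25 ex vivo (adjusted p = 0.00784) and -0.59 ± 0.24 stimulated (adjusted p = 0.0454), and the stimulated one did not pass the test under 15 of 20 alternative settings. The region 13.4 kb upstream was lower ex vivo by a similar amount (-0.75 ± 0.18, adjusted p = 0.0035), at 6.36, 4.67 and 5.40 FPKM in Ikzf1-cko against 7.73, 8.82 and 10.7 FPKM in WT libraries. Neither ex vivo difference passed the test with DESeq2. The start-site difference also failed it without ex vivo Ikzf1-cko replicate 2, and the upstream one with thinned counts.

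Marker regions of CD8 T cells, which also use granzyme B, moved the same way. The start sites of Cd8a and Cd8b1 together carried 20.7 to 24.2 FPKM in ex vivo WT and 10.8 to 14.6 FPKM in ex vivo Ikzf1-cko libraries, and 19.98 to 23.4 against 14.7 to 16.1 FPKM stimulated. Both markers of the list had a region, and the part of their difference in the Gzmb values was not tested. The general methods of the study describe isolating CD4+ T cells before any sort for CD4+YFP+ Treg. The ATAC-seq methods name a sort for YFP+ Treg. A sort on YFP would remove CD8 T cells that do not express Foxp3, and whether any CD8 T cells remained was not tested. Of the 2 NK cell markers only Klrb1c had a region over its start, at 4.53 to 5.47 FPKM in ex vivo WT and 4.41 to 6.41 FPKM in ex vivo Ikzf1-cko libraries, which overlap.

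Nrp1, the gene of the receptor neuropilin 1, held the most regions of the 8 genes. Ex vivo, 6 of its 20 tested regions (30%) were lower in Ikzf1-cko Treg and 0 were higher, beside 12.7% lower and 8.78% higher of all tested regions. Stimulated, 5 (25%) were higher and 0 lower, a share near the 20.4% higher of all tested regions, of which 30.7% were lower. At Nrp1, 0 regions passed the test in both states. The 6 lower regions lay in introns, 28.2 to 129.9 kb from the start. The region at 114.5 kb measured 21.3, 22.8 and 24.6 FPKM in ex vivo WT and 15.8, 14.9 and 12.6 FPKM in ex vivo Ikzf1-cko libraries (log2 difference -0.67 ± 0.12, adjusted p = 1.4e-04). After stimulation both genotypes stood at the lower level, at 10.4, 13.3 and 13.1 FPKM in WT and 12.7, 13.8 and 12.5 FPKM in Ikzf1-cko libraries. The WT level thus fell by 0.92 ± 0.14 (adjusted p = 7e-06), while the Ikzf1-cko level changed by -0.15 ± 0.12 (adjusted p = 0.38).

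At the Nrp1 start site, levels were 21.2, 23.7 and 25.8 FPKM in ex vivo WT and 25.9, 23.7 and 24.1 FPKM in ex vivo Ikzf1-cko libraries, which overlapped. Stimulated WT libraries stood at 18.4, 19.3 and 17.0 FPKM and stimulated Ikzf1-cko libraries at 23.2, 22.2 and 24.6 FPKM. The stimulated difference was 0.35 ± 0.09 (adjusted p = 0.00143), but with offsets against level it turned to -0.0054 (adjusted p = 0.968). The most accessible Nrp1 region, over exon 2 at 4.2 kb, fell on stimulation in WT Treg from 40.8, 35.5 and 37.0 to 20.8, 27.8 and 22.7 FPKM (-0.66 ± 0.18, adjusted p = 0.00407). The region 146.8 kb from the start, past the end of the gene, was higher in stimulated Ikzf1-cko Treg by 0.78 ± 0.15 (adjusted p = 1.3e-04).

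The region 7.4 kb upstream of Nrp1 (chr8:130874966-130875552) was the member called for a genotype-dependent response to stimulation. It measured 11.8, 11.7 and 9.31 FPKM in ex vivo WT and 8.17, 7.16 and 2.48 FPKM in stimulated WT libraries, and 7.66, 8.54 and 8.01 FPKM in ex vivo and 12.01, 9.36 and 13.4 FPKM in stimulated Ikzf1-cko libraries. All WT libraries were lower and all Ikzf1-cko libraries higher after stimulation than before. The log2 change was -0.82 ± 0.26 in WT (adjusted p = 0.00994) and 0.53 ± 0.19 in Ikzf1-cko Treg (adjusted p = 0.0467), and their difference was 1.35 ± 0.32 (adjusted p = 0.00961). The rise in Ikzf1-cko Treg did not pass the test under 13 of 21 alternative settings, TMM, DESeq2 and limma among them, with adjusted p up to 0.259. The difference between the responses did not pass under 1 of 20, limma (adjusted p = 0.0512). The third stimulated WT library was far below the other two, and without it the stimulated genotype difference was 0.60 (adjusted p = 0.04), the WT change -0.49 (adjusted p = 0.11) and the difference between the responses 1.02 (adjusted p = 0.0331).

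The response to stimulation was compared over all members. In WT Treg, 34 of the 68 tested regions fell and 2 rose, beside 20.7% lower and 26.9% higher of all tested regions, and 6 were called, 5 of them lower, beside 20% of all. The called region that rose was the Ebi3 start. The 5 that fell were the Il10 regions at exon 4 and 13.4 kb upstream, the Fgl2 region 4.4 kb upstream (-1.06 ± 0.35, adjusted p = 0.0129), the Entpd1 intronic region at 71.8 kb (-1.03 ± 0.24, adjusted p = 0.00108) and the Nrp1 intronic region at 132.7 kb (-1.03 ± 0.23, adjusted p = 4.67e-04). In Ikzf1-cko Treg, 11 fell and 6 rose, beside 11.5% lower and 12% higher, and 1 was called, the Il10 exon 4 region, beside 3.65% of all. The median log2 change was -0.37 in WT and -0.02 in Ikzf1-cko Treg, beside 0.04 and 0.06 over all tested regions. The counts in Ikzf1-cko Treg moved with scaling, to 12 lower and 4 higher with TMM factors and to 12 lower and 10 higher with offsets against level. In WT, 50.1% of the bin with the most reads fell, and 11 of the 14 members in it fell. Offsets against level left 22 members lower and 3 higher in WT, and leaving out the third stimulated WT library left 22 lower and 1 higher. Calls over all tested regions fell from 14011 to 4961 and 5266 under these settings. The shares above are those of the main fit.

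**Figure D4:**
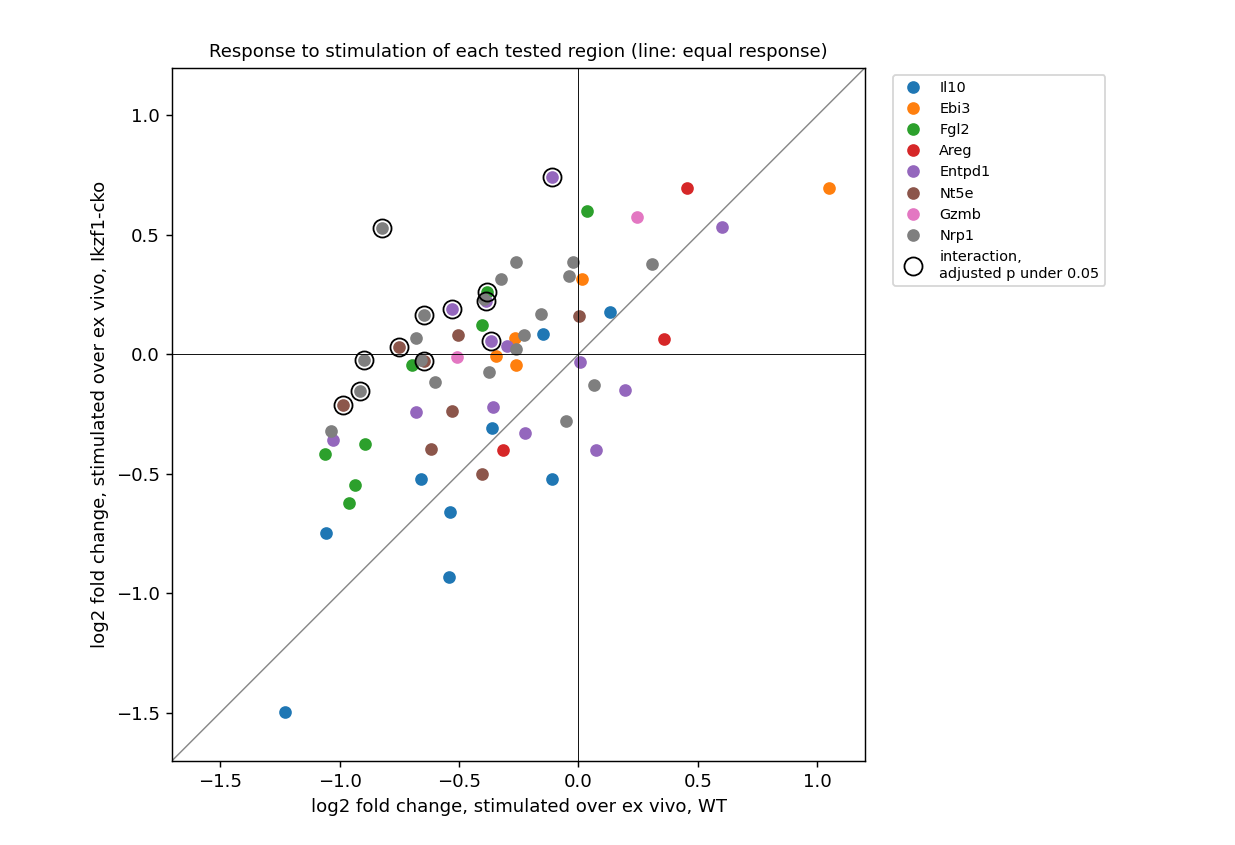
Log2 fold change on stimulation in WT (horizontal axis) and in Ikzf1-cko Treg (vertical axis) for each of the 68 tested member regions, coloured by gene. The diagonal marks an equal response, and circled points are the 12 regions whose responses differed by the interaction test, all of which lie above the diagonal. The Il10 exon 4 region stands at the lower left, with -1.23 in WT and -1.50 in Ikzf1-cko Treg.

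The 2 responses were compared directly by an interaction term. At 12 member regions the change on stimulation was more positive in Ikzf1-cko than in WT Treg and at 0 it was more negative, beside 5.66% and 1.82% of all tested regions, and 1 was called, beside 1.98%. The 12 regions were 4 of Nrp1, 4 of Entpd1, 3 of Nt5e and 1 of Fgl2. No region of Il10, Ebi3, Areg or Gzmb passed this test. Over all tested regions, 19.6% of the bin with the most reads and 6.22% of the bin below it had a more positive response in Ikzf1-cko Treg. Of the members, 3 of 14 in the bin with the most reads and 8 of 29 in the bin below it did. With TMM 6 members passed, with DESeq2 5, with limma 5, with offsets against level 4, and without the third ex vivo WT library 4. Calls over all tested regions went from 1385 to 1536, 688, 986, 893 and 510, in that order. The shares above are those of the main fit.

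Summed over each window, the 8 genes fell into different patterns. The windows of Il10 and Ebi3 carried more CPM in Ikzf1-cko Treg in both states and did not overlap with WT, with ratios of group means of 1.63 and 1.17 ex vivo and 1.52 and 1.33 stimulated. The windows of Gzmb and Areg carried fewer in both states, again without overlap, with ratios of 0.61 and 0.88 ex vivo and 0.77 and 0.82 stimulated. Fgl2 was lower ex vivo (0.85) and higher stimulated (1.21), in each case without overlap. Entpd1, Nt5e and Nrp1 overlapped between genotypes ex vivo, with ratios of 1.02, 1.07 and 0.87, and were higher without overlap in stimulated Ikzf1-cko Treg, with ratios of 1.26, 1.49 and 1.16. In stimulated cells all 8 windows were without overlap, and how often windows of other genes are so was not counted. These sums are given as a description, and no test was run on them. They also count regions shared with other genes. In the Ebi3 window the Ccdc94 and Zfp119b starts had means of 53.16 and 30.67 CPM over the 12 libraries, against 8.616 CPM at the Ebi3 start. The Nt5e sum includes the region within Snx14 (51.5 CPM), and the Entpd1 sum the start shared with Tctn3 (48.63 CPM).

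**Figure D5:**
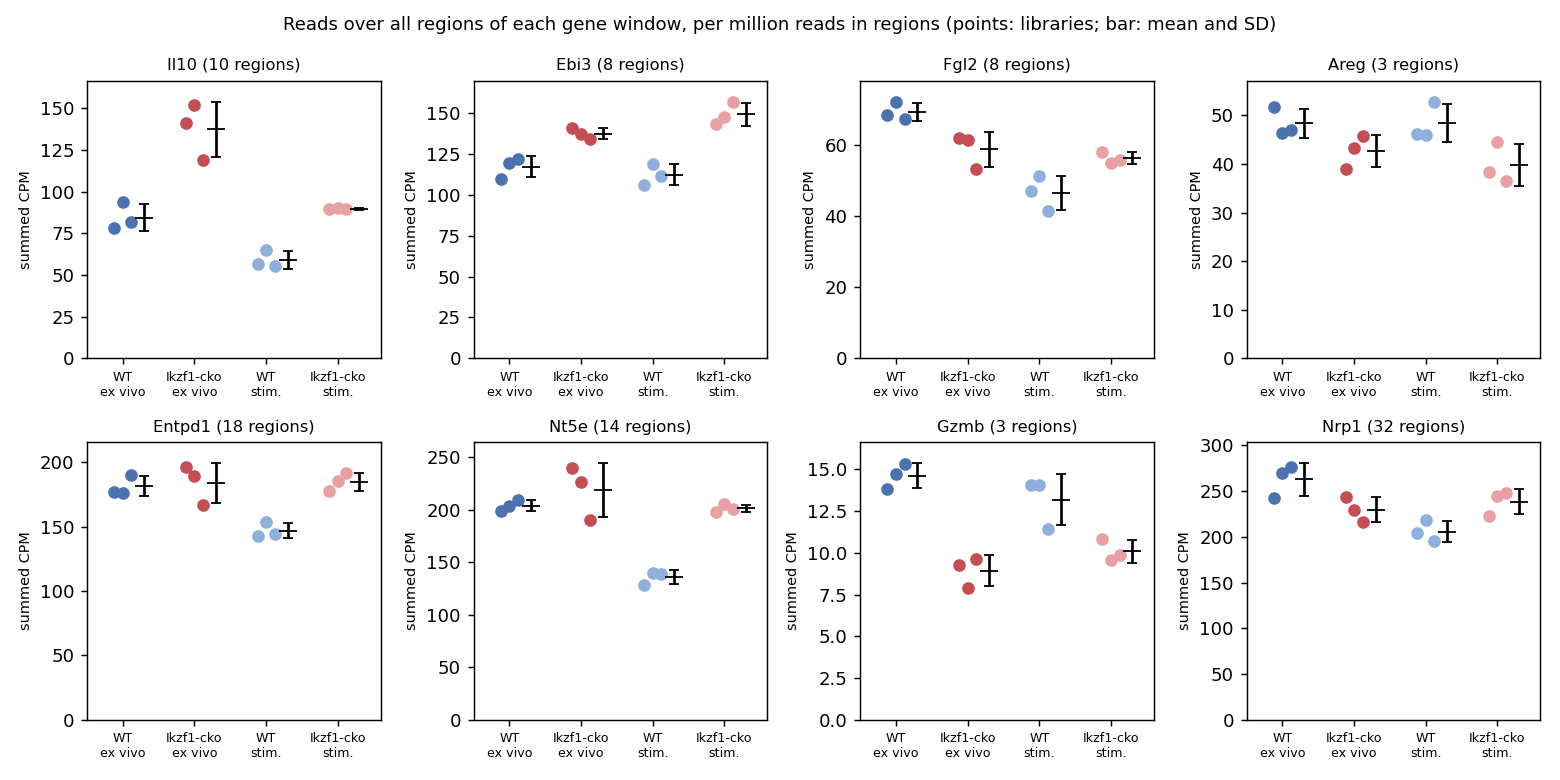
Reads over all member regions of each gene in CPM (vertical axis, from 0) in each of the 12 libraries, by group (horizontal axis). Points are libraries and the bar is the mean with its SD, n = 3. Il10 and Ebi3 are higher and Gzmb and Areg lower in Ikzf1-cko libraries in both states, and stimulated WT libraries are the lowest group at Entpd1, Nt5e, Fgl2, Nrp1 and Il10. The Ebi3 window includes the starts of Zfp119b and Ccdc94.

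A wider list of 18 genes with suppressive or effector functions in Treg, among them Ctla4, Lag3, Tigit, Tgfb1, Icos and Il2ra, was counted by the same window rule. It held 217 regions, of which 183 were tested. Ex vivo 36 (19.7%) were higher and 12 (6.56%) lower in Ikzf1-cko Treg, with 10 called (5.46%). The shares of all tested regions were 8.78%, 12.7% and 4.63%. Stimulated 77 (42.1%) were higher and 11 (6.01%) lower, with 7 called (3.83%), beside 20.4%, 30.7% and 21.3% of all. On stimulation 11 (6.01%) rose and 61 (33.3%) fell in WT, beside 26.9% and 20.7% of all. In Ikzf1-cko Treg 18 (9.84%) rose and 32 (17.5%) fell, beside 12% and 11.5%. The interaction passed for 14 regions (7.65%) with a more positive and 2 (1.09%) with a more negative response in Ikzf1-cko Treg, beside 5.66% and 1.82% of all. The median log2 difference between genotypes over these 183 regions was 0.11 ex vivo and 0.33 stimulated, against -0.03 and 0.34 for the 68 members.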

How the data were processed

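Open chromatin was profiled by ATAC-seq in 12 libraries, 3 per group, described in the methods as biological replicates, with no source here tying a replicate number to a mouse or a stimulated library to an ex vivo one. Per the labels and methods, the authors aligned reads with bowtie2 (build mm9 in the labels, although the methods print a human build), removed duplicates, called peaks with MACS2 and merged them into 118680 regions. For each region and library, the authors deposited 3 values: the read count after duplicate removal, its FPKM (scaled per kilobase and per 1000000 reads in regions) and the log2 of the FPKM, which was not used. A second deposited table holds the authors' own log2 fold changes, F statistics, p-values and FDR and was not used. No column of values per library lacked a label.

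Regions were annotated with GENCODE vM1. Counts were tested with edgeR 4.0.16 (R 4.3.3), with all 12 libraries in 1 quasi-likelihood fit, library totals as scaling, 69957 regions passing 3.6 CPM in at least 3 libraries, and Benjamini-Hochberg adjustment over all of them. The study's background scaling needs reads outside regions and could not be repeated. Standard errors are the log2 fold change divided by the root of F, and 95% intervals follow from them. The procedure was tested on simulated data. Alternatives were TMM, DESeq2 1.42.0, loess offsets against level, other filters, thinned counts, limma 3.58.1 on log2(FPKM + 1), replicate blocks, each library left out, and other windows. Genes and lists were chosen with earlier results of these data known. Named for each gene were its start-site region, its most accessible region, the region of smallest p in each two-group comparison, and the called regions; others given in the text were chosen after their values were seen. Motifs were counted in the central 300 bases.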

Additional observations from a re-analysis of the deposited data

Results flagged for a closer look

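At 12 of the 68 tested member regions the genotype difference in stimulated Treg departed from that in ex vivo Treg by the interaction test of the edgeR fit (adjusted p under 0.05 over all tested regions). In each case the response to stimulation was more positive in Ikzf1-cko than in WT Treg. At Nrp1 the differences between the 2 responses, on the log2 scale, were 1.35 for the region 7.4 kb upstream, 0.81 at 31.9 kb, 0.76 at 114.5 kb and 0.87 at 160.2 kb from the start. At Nt5e they were 0.78 at 1.5 kb, 0.62 at 29.0 kb and 0.77 at 52.3 kb. At Entpd1 they were 0.42 at the first start, 0.72 at the second start, 0.85 at 74.9 kb and 0.61 at 95.5 kb, and at Fgl2 the value was 0.64 at 11.9 kb. Of 21 alternative settings, the Entpd1 differences failed the test under 11 (first start), 5 (second start) and 13 (74.9 kb). The Fgl2 difference failed under 12 and the Nrp1 one at 114.5 kb under 3. Those of Nt5e at 1.5 and 52.3 kb passed under all 21. Of all regions tested, 5.66% passed in this direction, and 19.6% of those in the highest of 5 equal bins of level did. In that bin 3 of 14 members passed. In the bin below it 8 of 29 members passed, beside 6.22% of all regions there.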

How the results depend on the processing

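Depth limits the 28 untested regions, and stimulated WT libraries were the shallowest and least alike. Called member regions in the main analysis numbered 2 ex vivo and 2 stimulated between genotypes, 6 on stimulation in WT, 1 in Ikzf1-cko Treg and 1 for the interaction. The ex vivo count became 4 with TMM, 4 with DESeq2, 5 with thinned counts, 27 with no fold threshold and 0 within gene bodies only. The stimulated count became 5 with DESeq2, 7 with loess offsets, 4 with no filter, 4 with thinned counts, 34 with no fold threshold and 1 within gene bodies. Over all tested regions, loess offsets lowered the stimulated genotype calls from 14932 to 4725 of 69957 and the WT stimulation calls from 14011 to 4961, and 3.6 CPM in all libraries left 858 and 1239 of 34257, so member counts under these settings stand beside other shares. The WT stimulation count became 3 with 3.6 CPM in all libraries, 1 with limma and 36 with no fold threshold, and the Ikzf1-cko count 2 with no filter, 2 with thinned counts and 17 with no fold threshold. The interaction count became 0 with 3.6 CPM in all libraries, 0 with limma, 0 within gene bodies, 2 with thinned counts, 2 with a 50 kb window and 12 with no fold threshold. Leaving out 1 library gave 2 to 3 ex vivo, 2 to 5 stimulated (5 without stimulated WT replicate 2), 4 to 8 in WT, 1 to 2 in Ikzf1-cko Treg (2 without ex vivo Ikzf1-cko replicate 3) and 1 to 2 for the interaction (2 without ex vivo replicate 1 of either genotype or stimulated WT replicate 2). Of the 80 results for single regions, 39 kept their side of the threshold under every alternative run, 40 lost it under some, and 1 reversed, the stimulated difference at the Nrp1 start, at -0.0054 with loess offsets. The cause was not tested. Same-numbered libraries did not deviate together (correlations from -0.355 to 0.284 over 18 pairs), and with the replicate number as a block the counts were 2, 2, 6, 1 and 1, and 7 in WT with the block within genotype, where 9 rather than 12 regions passed the interaction test with no fold threshold.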

Other observations

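The regions most like each start-site region, by Pearson correlation of log2(CPM + 1) over the 12 libraries among all tested regions, lay elsewhere in the genome. For the Nt5e start region they were nearest to Tspan5 (r = 0.994), Mllt3 (0.992) and S100a10 (0.992), and for the Ebi3 start region nearest to Macf1 (0.982), Slc15a3 (0.977) and Mum1 (0.963). The values for Gzmb were highest near Metap2 (0.961) and Tob1 (0.956), and those for Areg near Rcn1 (0.963) and Cstl1 (0.960). These values are descriptions, chosen as the highest among 69957 regions, over libraries of 4 groups whose depth differed with genotype.

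Some member regions too weak for the main test had their highest values in stimulated WT libraries. Weak regions leaned this way over the whole table. In the bin of tested regions with the fewest reads, 68.25% rose on stimulation in WT and 74.57% were lower in stimulated Ikzf1-cko than WT Treg. The region 1.5 kb upstream of Ebi3 measured 8.70, 12.2 and 12.4 FPKM in stimulated WT and 4.95, 4.64 and 6.43 FPKM in stimulated Ikzf1-cko libraries, against 1.22 to 3.25 FPKM in ex vivo WT. The Nt5e intronic region at 36.6 kb measured 17.5, 9.26 and 18.2 FPKM in stimulated WT against 2.81 to 6.10 FPKM in stimulated Ikzf1-cko and 2.66 to 9.16 FPKM in ex vivo WT libraries. These regions were chosen after their values were seen and carry no test.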
